A study of Drosophila melanogaster with 2 samples.

Results

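The 40 genes described here act in the germline, in the deposit and control of maternal mRNA, or in the piRNA pathway. They were taken from a list of named genes and looked up by symbol in the Ensembl annotation of the Drosophila melanogaster genome, and all 40 are protein coding, out of 13968 protein-coding genes and 18277 annotated genes. The study measured where the zinc finger protein CG9215, fused to enhanced green fluorescent protein (eGFP), sat on chromatin, by chromatin immunoprecipitation with an anti-GFP antibody and sequencing. Both libraries, biological replicates 1 and 2, came from whole transgenic embryos aged 0 to 24 h, and there was no other group. The values are those of the fusion protein made from a transgene, the control library was not analysed here, and no immunoprecipitation from embryos without the tag was used here. Whole embryos pool all cell types, so weak occupancy in many cells and strong occupancy in a few, such as the germ cells, cannot be told apart. With 1 group of 2 libraries no difference between conditions can be tested, and every value below is a description.

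Much of early fly development runs on mRNA that the mother places in the egg. Germ plasm at the posterior pole holds the determinants of the germ cells, mRNAs are carried there along microtubules, and repressor proteins keep them silent or degrade them until they are needed. The piRNA pathway uses small RNAs bound to PIWI proteins to silence transposons in the germline, with precursors transcribed from piRNA clusters and cut in the nuage, a structure around the nurse cell nuclei. These genes are known mostly for their activity in the ovary and the early embryo.

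A promoter peak was counted for a gene when the summit of a peak, its point of highest signal, lay within 500 bp of a start site of the gene. The authors deposited lists filtered by a threshold on the irreproducible discovery rate (IDR), a measure of how likely a peak is not to be found again, and the conservative list of 3718 peaks is the one read here as common to both replicates. In it, 8 of the 40 genes had a promoter peak, a share of 20.0% with a Wilson 95% interval of 10.5% to 34.8%, against 17.3% of all protein-coding genes. They were tral, orb, cuff, egl, brat, nos, bgcn and spn-E, in order of falling signal. The share of the 40 genes lay near that of all protein-coding genes, and the interval, which covers the sampling of genes only, holds the value of all protein-coding genes. The genes with a peak came from 5 of the 8 functional groups, and the signal of their peaks had a median of 175 and a range of 147 to 458, against a median of 194 over all 2419 protein-coding genes with a promoter peak. Signal is the deposited value of the peak caller on an unstated scale, and it serves here only to rank peaks within a list.

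The sequences under 8 of the sites are shown here, and the results below refer back to them. Each is the window from 50 bases before to 50 bases after the summit, read from the RefSeq copy of the Release 6 genome (dm6), counted from 1 and written 5′ to 3′ on the strand of the named gene. Capitals mark matches, on either strand, to any of 8 short patterns or to TTTAAAAA, the word of 8 bases that leads the other conservative peaks. The first 4 windows are promoter sites of the conservative list. The promoter windows of nos, bgcn, cuff and egl are not shown. Those of nos, bgcn and egl, with 58.4%, 46.5% and 40.6% of G and C, were richer in these bases than the 4 shown. The pum promoter window passed in replicate 2 alone, and the last 3 windows are the strongest conservative site inside each of pum, brat and BicD.
tral, chr3L:12514828-12514928, plus strand: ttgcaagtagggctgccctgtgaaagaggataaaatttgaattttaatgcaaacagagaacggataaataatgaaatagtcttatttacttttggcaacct
orb, chr3R:23281089-23281189, minus strand: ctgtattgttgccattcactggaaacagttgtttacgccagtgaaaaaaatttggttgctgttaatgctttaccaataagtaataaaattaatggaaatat
brat, chr2L:19133699-19133799, plus strand: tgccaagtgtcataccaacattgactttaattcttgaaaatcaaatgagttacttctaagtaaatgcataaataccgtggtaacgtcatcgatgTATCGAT
spn-E, chr3R:15837289-15837389, plus strand: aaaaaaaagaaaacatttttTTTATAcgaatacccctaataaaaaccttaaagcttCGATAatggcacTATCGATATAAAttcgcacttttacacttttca
pum promoter, chr3R:9158321-9158421, minus strand: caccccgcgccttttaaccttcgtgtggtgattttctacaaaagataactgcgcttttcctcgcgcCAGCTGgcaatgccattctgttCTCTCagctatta
pum intron, chr3R:9227445-9227545, minus strand: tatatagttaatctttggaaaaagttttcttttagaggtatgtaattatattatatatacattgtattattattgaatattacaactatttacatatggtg
brat intron, chr2L:19165103-19165203, plus strand: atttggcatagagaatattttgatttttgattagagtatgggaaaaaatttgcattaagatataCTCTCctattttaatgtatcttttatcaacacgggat
BicD intron, chr2L:17466394-17466494, minus strand: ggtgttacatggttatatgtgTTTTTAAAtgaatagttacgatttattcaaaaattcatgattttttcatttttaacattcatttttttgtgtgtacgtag

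The capitals in the brat window are TATCGAT, the DNA replication-related element (DRE) that the factor DREF binds, at the 3′ end of the window. The spn-E window holds TATCGAT running into TATAAA, the TATA box letters, with which it overlaps, as well as a second TATA box match on the other strand and CGATA, the core site of the insulator protein BEAF-32. The tral and orb windows hold none of the 8 patterns. TATCGAT was in 2 of the 9 member promoter windows of the conservative list, in 6.13% of the windows at other conservative promoter peaks and in 5.26% of windows placed 100 bp upstream of all protein-coding start sites. CGATA, which overlaps with TATCGAT on the other strand, was in 4 of the 9 member windows, against 20.5% at other conservative promoter peaks and 19.5% at all start sites. With 9 windows these counts are a description and say nothing of which factor binds.

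The other patterns were found in few or none of the member promoter windows. CAGCTG, an E-box, was in 2 of the 9 windows, those of nos and egl, and in 3.82% of the windows at other conservative promoter peaks and 5.52% at all start sites. TATAAA was in 1 of the 9, against 22.4% at other conservative promoter peaks and 16.3% at all start sites. No member promoter window of the conservative list held GAGAG (8.22% of other conservative promoter windows, 15.9% of start site windows), GTCACAC (1.99% and 1.8%), CACGTG (0.943% and 1.01%) or CAGGTAG (0.419% and 0.659%). The pum promoter window of replicate 2 held both CAGCTG and GAGAG, which stands there as its reverse complement CTCTC, as it does in the brat intron window. TTTAAAAA was in 1 of the 9 member windows, that of a weak second peak at cuff, against 7.60% of other conservative promoter windows and 5.5% of start site windows. The word was picked from a set that includes those other conservative promoter windows, so the 7.60% is not independent of that choice. The BicD intron window above shows TTTAAAAA as its reverse complement, TTTTTAAA.

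Each replicate also has a thresholded list of its own, with 3442 peaks in replicate 1 and 2624 in replicate 2. In replicate 1, 8 of the 40 genes had a promoter peak, against 16.1% of all protein-coding genes. In replicate 2, 7 had one, a share of 17.5% (interval 8.75% to 31.9%), against 14.5%. Brat, cuff, egl, nos, orb and tral passed in both replicates, which is 6 of 40 or 15% (interval 7.06% to 29.1%), against 12.8% of all protein-coding genes. The other thresholded series list, with 4098 peaks, held the same 8 genes as the conservative list, against 18.1% of all protein-coding genes. In each list the share of the 40 genes was above that of all protein-coding genes by a few percentage points, within the interval. The 40 genes had a mean of 1.75 start sites per gene, against 1.41 over all protein-coding genes. The shares were not matched for this.

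**Figure D1:**
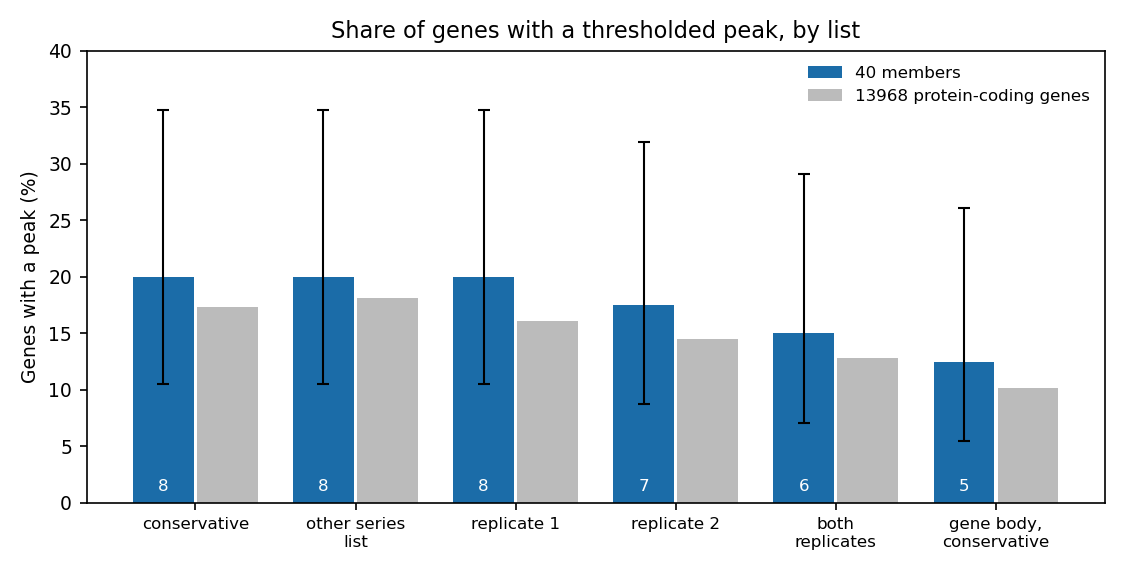
Share of genes with a promoter peak in each thresholded list (first 5 pairs of bars) and with a summit in the gene body in the conservative list (last pair), in percent. Blue bars are the 40 members with their count at the base and Wilson 95% intervals as error bars, grey bars are all 13968 protein-coding genes. Every interval spans the grey bar beside it.

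By number, the repressors of maternal mRNA translation had the most genes with a conservative promoter peak, 3 of 8, or 37.5%. The Wilson interval of 13.7% to 69.4% holds the 17.3% of all protein-coding genes. The strongest promoter peak of any member in the conservative list lay at tral. Tral (trailer hitch) encodes an LSm-domain protein that works with the helicase Me31B in particles that silence maternal mRNA. Its peak at chr3L:12514731-12515016 had a signal of 458 and rank 398 of 3718 in the conservative list. In the replicates its signal was 249 in replicate 1 (rank 386) and 214 in replicate 2 (rank 405), so that both placed it at nearly the same rank. The summit lay 181 bp upstream of the tral start site, but 63 bp from the start site of sti, the citron kinase gene of cytokinesis, which is transcribed the other way.

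Nos and brat act together in the repression of hunchback mRNA, nos as the posterior determinant and brat as a partner of the RNA-binding protein Pumilio. The brat promoter peak at chr2L:19133541-19133956 had a conservative signal of 160 and rank 1652. Its signal was 75 in replicate 1 (rank 2013) and 88.7 in replicate 2 (rank 1398), and its summit lay 67 bp upstream of the first brat start site. Polr1D, which encodes an RNA polymerase subunit, starts 266 bp from the same summit on the other strand. The nos peak at chr3R:19156616-19157031 had a conservative signal of 157 and rank 1707, with 97.6 in replicate 1 (rank 1454) and 65.0 in replicate 2 (rank 1993). Its summit was the farthest of the 8 from its member start site, 414 bp upstream, and lay 12 bp from a start site of CG11779. The window around the summit overlapped a 5′ UTR of CG11779.

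Pum, the gene of Pumilio itself, differed between the replicates. In replicate 2 a peak at chr3R:9158289-9158502, in an intron 421 bp upstream of an internal start site, had a signal of 225, rank 376 of 2624 and the full score of 1000. In replicate 1 no peak lay there even in its ranked list of 108069 peaks, the list before any threshold, and the ranked list made from both replicates held none either. The pum promoter therefore rests on replicate 2 alone. Smg and cup, which encode a repressor of nos mRNA and a partner of the cap-binding protein eIF4E, had ranked peaks below the threshold in both replicates. Their signal was 42.0 in replicate 1 and 30.8 in replicate 2 at smg, and 25 in replicate 1 and 28.4 in replicate 2 at cup. Here and below, the ranked promoter signal of a gene is that of its strongest ranked promoter peak in the replicate named. The replicates need not share that site. Bru1, which encodes the osk repressor Bruno, had 17.1 in replicate 2 and no ranked promoter peak in replicate 1, and me31B had none in either.

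Among the 7 genes of mRNA localization, orb and egl had conservative promoter peaks. Orb encodes a cytoplasmic polyadenylation element-binding protein that activates translation in the oocyte. Its peak at chr3R:23281023-23281226 had a conservative signal of 321 (rank 689), 166 in replicate 1 (rank 702) and 151 in replicate 2 (rank 707). As at tral, the ranks in the replicates lay close together and another gene was nearer: the summit was 283 bp upstream of orb and 62 bp from the start site of Cdc16, a subunit gene of the anaphase-promoting complex. Egl encodes the adaptor that links localized mRNA to Bicaudal D and the dynein motor. Its peak at chr2R:23745132-23745547 had a conservative signal of 190 (rank 1356), 105 in replicate 1 (rank 1337) and 86.7 in replicate 2 (rank 1435).

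The egl summit lay 156 bp upstream of the shorter transcript's start site, in an intron of the longer transcript, with no start site of another gene in the window. BicD, whose product egl binds, had no ranked promoter peak in either replicate but a site in its intron, described below. The remaining localization genes had ranked peaks only. Exu had a signal of 41.4 in replicate 1 and 14.9 in replicate 2. BicC had 22.9 in replicate 1 and 20.4 in replicate 2. Swa had 12.8 in replicate 1, 299 bp downstream of its start site, and 24.6 in replicate 2, 15 bp downstream. Stau, which encodes a double-stranded RNA-binding protein that moves osk and bcd mRNA, had 29.5 in replicate 1 and no ranked peak in replicate 2.

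None of the 6 genes of germ plasm assembly and germ cell formation had a thresholded peak at a promoter or in the gene body. Osk, the organizer of the germ plasm, had a ranked promoter peak with a signal of 42.1 in replicate 1 (rank 4159 of 108069) and none in replicate 2. The helicase gene vas, the scaffold gene tud, and vls, gcl and pgc had no ranked promoter peak in either replicate. The Wilson interval of 0 of 6 reaches 39.0%, which holds the 17.3% of all protein-coding genes, so no lack of sites can be read from this group.

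**Figure D2:**
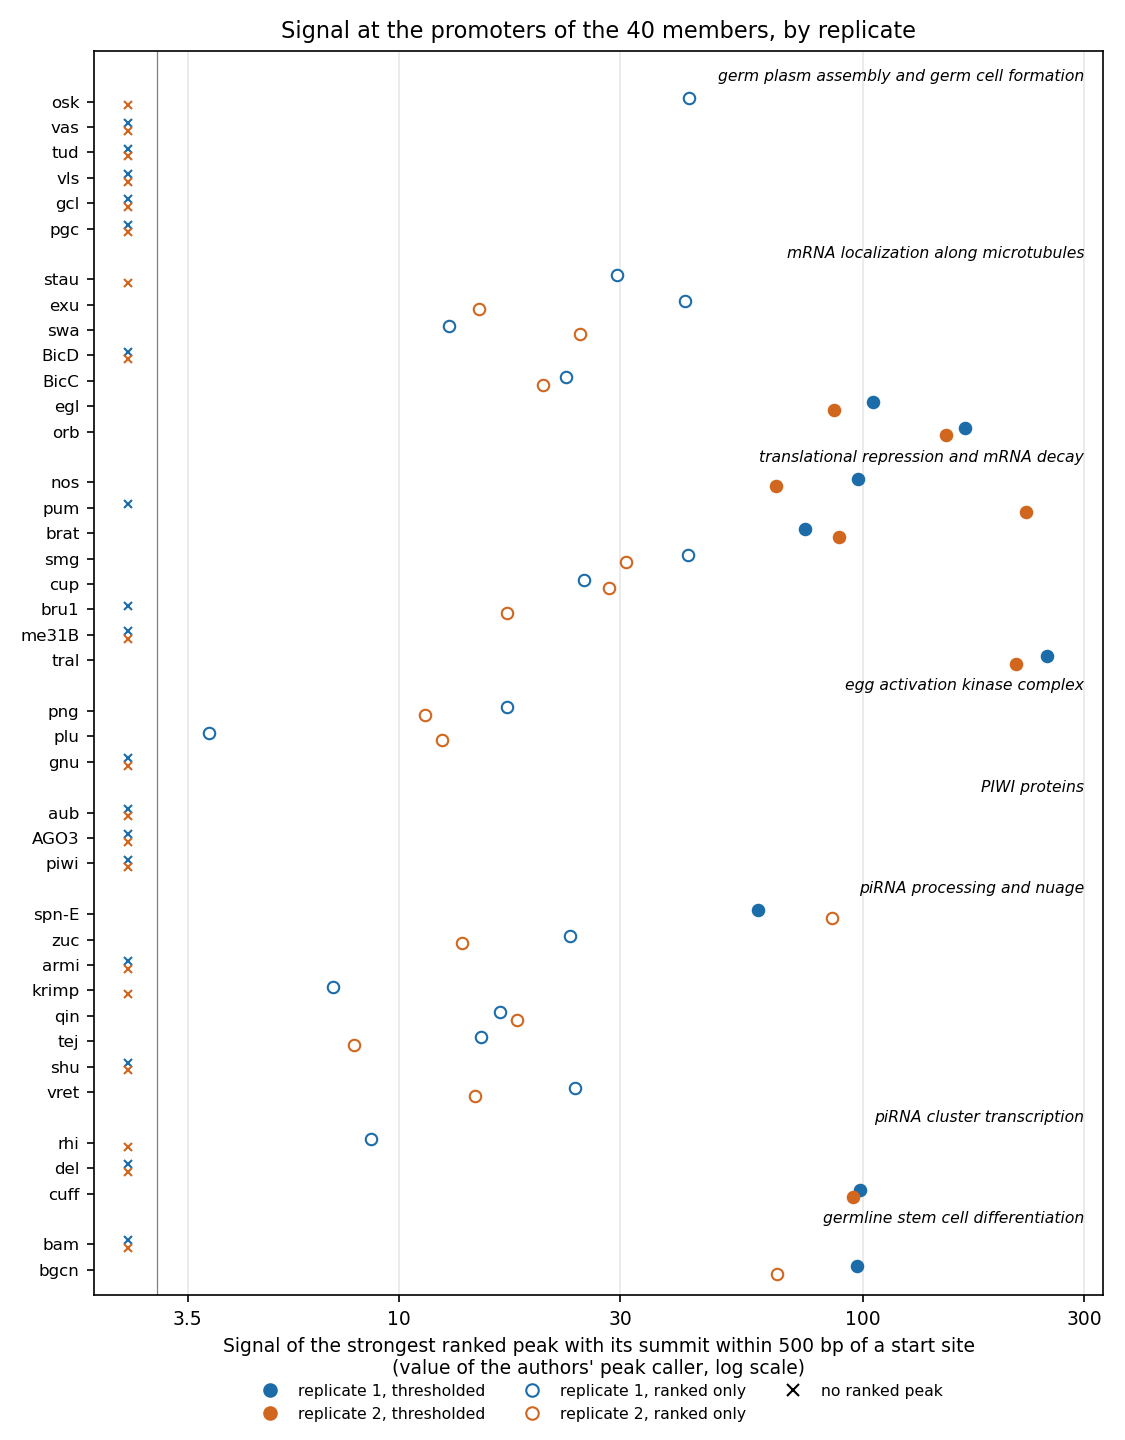
Signal of the strongest ranked peak at the promoter, for each of the 40 members by functional group, on a log axis in the units of the authors' peak caller. Filled points passed the threshold of their replicate, open points did not, and crosses at the left mark no ranked peak, with replicate 1 in blue and replicate 2 in orange. Tral is highest in replicate 1 and pum in replicate 2, and all germ plasm genes are open points or crosses.

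In the piRNA pathway, conservative promoter peaks were found at spn-E and cuff. Spn-E encodes an RNA helicase of the nuage that is needed for piRNA production by the ping-pong cycle. Its peak at chr3R:15837131-15837546 had a conservative signal of 147 and rank 1831, the lowest of the 8 genes, and a signal of 59.4 in replicate 1 (rank 2572 of 3442). It was not in the thresholded list of replicate 2, although its ranked signal there was 85.9, because its score was 35 and every thresholded peak has a score of at least 830. The summit lay 80 bp upstream of spn-E and 222 bp from ND-23, a gene of mitochondrial complex I on the other strand.

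Cuff encodes a partner of rhi and del in the complex that lets piRNA clusters be transcribed. Its peak at chr2R:11885557-11885972 had a conservative signal of 195 (rank 1316), 98.4 in replicate 1 (rank 1443) and 95.0 in replicate 2 (rank 1279). The summit lay 302 bp upstream of cuff and 180 bp from CG13185, whose start site is nearer. A second, weak conservative peak at chr2R:11885766-11886181, with a signal of 32.2 and rank 3584, had its summit 93 bp upstream of cuff. It overlaps the first, and the other series list and the thresholded list of each replicate held only 1 promoter peak at cuff. Both cuff windows are counted among the 9 member promoter windows. Of its partners, rhi had a ranked signal of 8.68 in replicate 1 and none in replicate 2, and del had no ranked promoter peak in either.

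The 3 genes of PIWI proteins, aub, AGO3 and piwi, had no ranked promoter peak in either replicate, and no thresholded summit lay in their bodies. The interval of 0 of 3 reaches 56.1%. AGO3 was the member farthest from any conservative summit, at 520096 bp. Of the other processing genes, zuc, which encodes the nuclease that cuts piRNA precursors, had a ranked signal of 23.4 in replicate 1 and 13.7 in replicate 2, and vret had 24.0 in replicate 1 and 14.6 in replicate 2. Qin had 16.5 in replicate 1 and 18.0 in replicate 2, tej 15 in replicate 1 and 7.99 in replicate 2, and krimp 7.19 in replicate 1 alone. Armi and shu had no ranked promoter peak, but a conservative summit lay just outside the window of armi, 573 bp from its nearest start site.

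Bgcn, which acts with bam to let germline stem cell daughters differentiate, had a peak at chr2R:23858562-23858977 with a conservative signal of 148 and rank 1814. Its signal was 96.9 in replicate 1 (rank 1467). In replicate 2 the ranked signal was 65.2 with a score of 829, just below the lowest score of the thresholded lists, so the absence of bgcn from that list rests on 1 score unit. Its summit lay 151 bp downstream of the start site, in the 5′ UTR, and it was the only one of the 8 downstream. Bam had no ranked promoter peak in either replicate. The 3 genes of the kinase complex that acts at egg activation had no thresholded peak: the ranked signal was 17.1 in replicate 1 and 11.4 in replicate 2 at png, 3.90 in replicate 1 and 12.4 in replicate 2 at plu, and none at gnu.

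In the ranked lists, which hold peaks above and below the threshold, promoter peaks were found in 23 of the 40 genes in replicate 1, or 57.5%, against 63.0% of all protein-coding genes, and in 21 in replicate 2, or 52.5%, against 65.5%. In 15 genes neither replicate had one. The 31 genes with no thresholded promoter peak in any list had ranked peaks at 15 genes in replicate 1, with a median signal of 22.9, and at 12 genes in replicate 2, with a median of 16. Members with a ranked promoter peak, above or below the threshold, had a median signal of 29.5 in replicate 1 and 28.4 in replicate 2. Over all protein-coding genes with such a peak the median was 22.9 in replicate 1 and 24.5 in replicate 2. No median was taken over the protein-coding genes without a thresholded peak, so the values of the 31 genes have no like set beside them. In replicate 1 the highest values below the threshold, at osk, smg and exu, were from 41.4 to 42.1, against 59.4 for the weakest thresholded member. In replicate 2 the signals overlapped: spn-E with 85.9 and bgcn with 65.2 did not pass, while nos passed with 65.0.

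At most of the 8 genes a divergent neighbour shared the site. The share of such genes lay near that of all protein-coding genes with a conservative promoter peak, which its interval holds. At 6 of the 8 genes, brat, cuff, nos, orb, spn-E and tral, a start site of another gene on the opposite strand lay within 500 bp of the summit, which is 75% (interval 40.9% to 92.9%), against 62.3% of all protein-coding genes with a conservative promoter peak. The member's own start site was the nearest at 4 of the 8, bgcn, brat, egl and spn-E, or 50% (interval 21.5% to 78.5%), against 69.3%. At cuff, nos, orb and tral the neighbour was nearer. At none of the 6 genes with such a neighbour can the peak be given to the germline gene alone. The distance between the paired start sites was 333 bp at brat, 482 bp at cuff, 345 bp at orb and 302 bp at spn-E. At tral it was 244 bp to sti and 50 bp to lncRNA:CR45168, and at nos 426 bp and 221 bp to the start sites of CG11779.

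**Figure D3:**
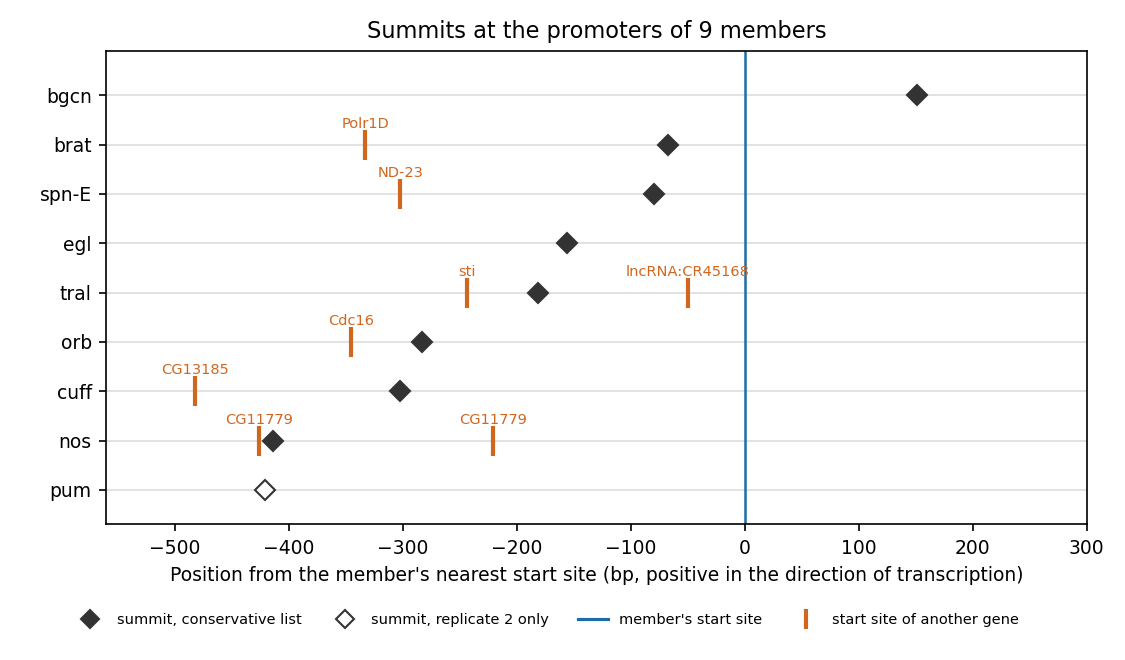
Position of the summits (diamonds) in bp from the nearest start site of the member (blue line at 0, transcription to the right), for the 8 genes of the conservative list and, as an open diamond, pum in replicate 2. Orange ticks mark start sites of other genes, all on the opposite strand. Of the 8 filled diamonds 7 lie upstream, and at tral, orb, cuff and nos an orange tick is nearer than the blue line.

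Such neighbours are common among the 40 genes. An opposite-strand start site of another gene lay within 500 bp of a start site at 20 of them, or 50% (interval 35.2% to 64.8%), against 30.8% of all protein-coding genes. Of these 20, 6 or 30% (interval 14.5% to 51.9%) had a conservative promoter peak, against 34.3% of all protein-coding genes with such a neighbour. Of the other 20, 2 or 10% (interval 2.79% to 30.1%), bgcn and egl, had one, against 9.76% of all protein-coding genes without such a neighbour. Within each class the members lay near the level of all protein-coding genes. This split was chosen after the positions of the member peaks had been seen.

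The position of the summits differed little from that at other genes. Of the 8 genes 7 had the summit upstream, or 87.5%, against 90.3% of all protein-coding genes with a conservative promoter peak, and the median position was −168.5 bp against −142.0 bp. The distance from a start site to the nearest conservative summit had a median of 6462 bp over the 40 genes and 9038 bp over all protein-coding genes. These medians were not matched for the number of start sites per gene. Besides armi, pum at 655 bp, swa at 798 bp and gnu at 1031 bp were the closest outside the window.

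Inside gene bodies, 5 of the 40 genes held a conservative summit, bgcn, BicD, brat, egl and pum, or 12.5% (interval 5.46% to 26.1%), against 10.2% of all protein-coding genes. At bgcn and egl it was the promoter summit already described. The 40 genes are longer than most, with a median of 4870 bp against 2164 bp over all protein-coding genes. Whether length bears on the share with a summit was not tested. Long members without a thresholded site in the body were bru1 with 138435 bp, AGO3 with 135048 bp and qin with 59111 bp.

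The strongest conservative peak of any member lay inside brat and not at its first promoter. At chr2L:19165014-19165281, in an intron 714 bp upstream of an internal brat start site, the conservative signal was 528 (rank 315), with 254 in replicate 1 (rank 367) and 276 in replicate 2 (rank 276). Nearer the 5′ end a site at chr2L:19141709-19142124 had a conservative signal of 152 (rank 1767), with 80.2 in replicate 1 and 68.2 in replicate 2. Another site beside it, at chr2L:19140879-19141294, had 79.6 in the conservative list and passed in neither replicate alone, with a ranked signal of 37.4 in replicate 1 and 41.4 in replicate 2. Brat thus had 3 conservative summits within its 45943 bp, besides the promoter summit just upstream of the gene.

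Pum spans 171340 bp and had conservative sites near both ends. In an intron 655 bp upstream of a pum start site and 638 bp from the start site of lncRNA:CR45196, the peak at chr3R:9227442-9227549 had a conservative signal of 229 (rank 1075), with 143 in replicate 1 (rank 877) and 88.9 in replicate 2 (rank 1390). A weak peak at chr3R:9083309-9083724 had 69.2 (rank 3486) and ranked signals of 36.7 in replicate 1 and 37.3 in replicate 2. A peak close to it, at chr3R:9085345-9085760, passed in the other series list with 92.9 and in replicate 1 with 60.3, but had only a ranked signal of 29.8 in replicate 2. A peak at chr3R:9229079-9229494 passed in the other series list alone, with 80.6.

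BicD, the dynein adaptor gene, had its only site in an intron, at chr2L:17466236-17466651 and 6771 bp from its start site. The conservative signal was 130 (rank 2118), with 90 in replicate 1 (rank 1619). In replicate 2 the ranked signal was 47.0 with a score of 775, below the threshold. Egl had, beside its promoter peak, an intron peak at chr2R:23739295-23739710 that passed in the other series list alone, with a signal of 71.0.

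**Figure D4:**
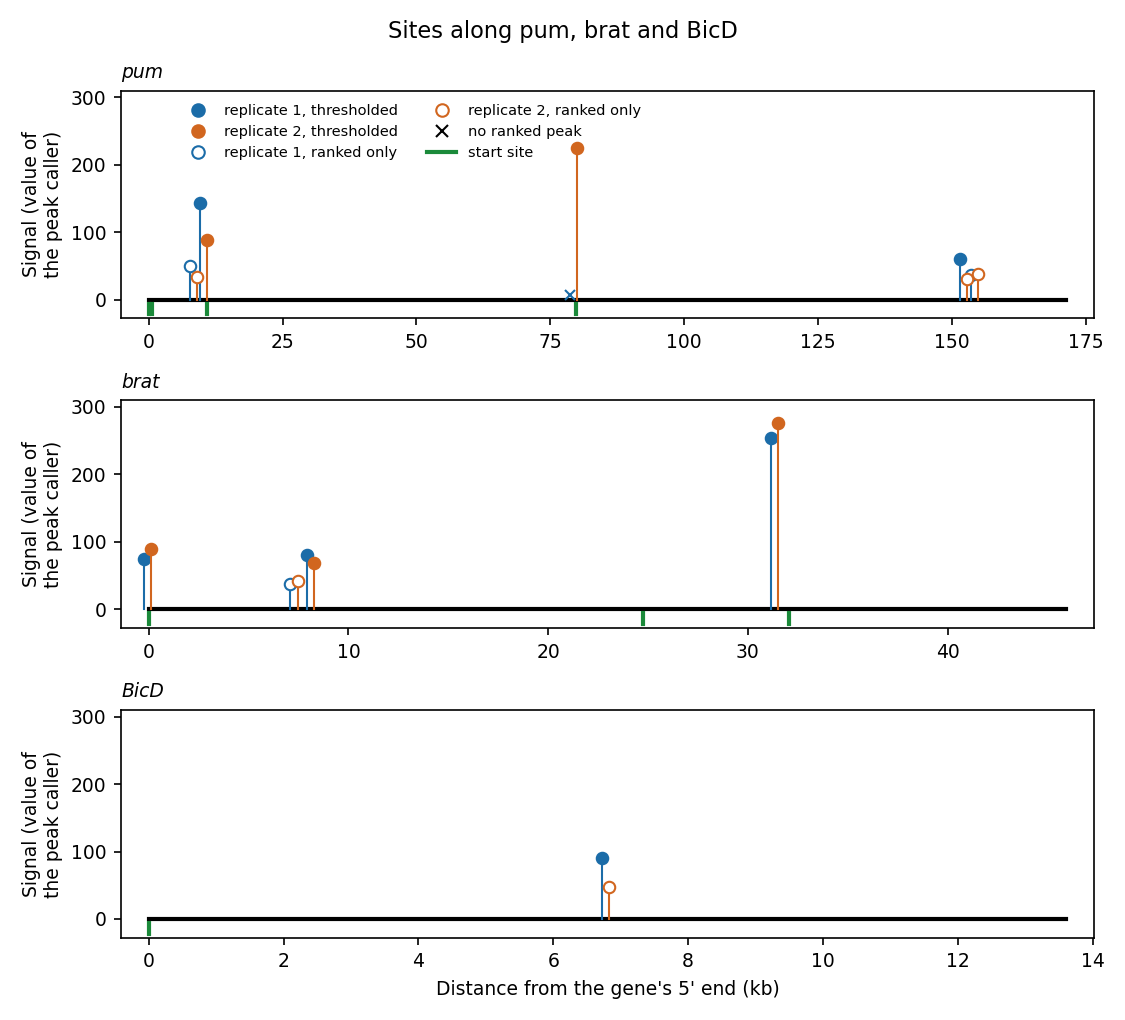
Signal of the sites along pum, brat and BicD, in the units of the authors' peak caller, against the distance from the gene's 5′ end in kb. Filled points passed the threshold of their replicate, open points are ranked only, a cross marks no ranked peak, green ticks are start sites, and the points of replicate 1 (blue) and replicate 2 (orange) at one site are set slightly apart sideways. The strongest site is inside brat in both replicates, and the tall orange point in the middle of pum has a blue cross beside it.

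The windows under the member promoter peaks were about as rich in A and T as those of other sites. Over the 9 windows of the conservative list the median G+C content was 33.7%, with a range of 26.7% to 58.4%, against 32.7% at the other 1909 conservative promoter peaks. Windows upstream of all protein-coding start sites had a median of 38.6%, and ranked promoter peaks with no overlap to a thresholded peak had 49.5%. The nos window stood at the upper end with 58.4%, higher than 97.8% of the other conservative promoter windows, and overlapped a 5′ UTR of CG11779. The bgcn window had 46.5% and the egl window 40.6%, while brat and tral had 33.7%, cuff 31.7%, orb 30.7% and spn-E 26.7%.

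The conservative sites inside member genes and away from their promoters had a G+C content of 18.8% to 43.6%, against a median of 33.7% over 1757 other conservative windows away from promoters. The pum intron window shown above had 18.8%, lower than all but 1.37% of the other conservative windows away from promoters, and an unbroken run of 17 bases of A and T. The BicD intron window had 23.8% and the window of the strongest brat site 26.7%. The weaker brat sites had 33.7% at the one with a conservative signal of 152 and 32.7% at the one with 79.6, and the weak pum site near the 3′ end had 43.6%. The pum promoter window of replicate 2, in contrast, had 48.5%, higher than 87.8% of the other conservative promoter windows and near the median of the promoter peaks that passed no threshold.

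**Figure D5:**
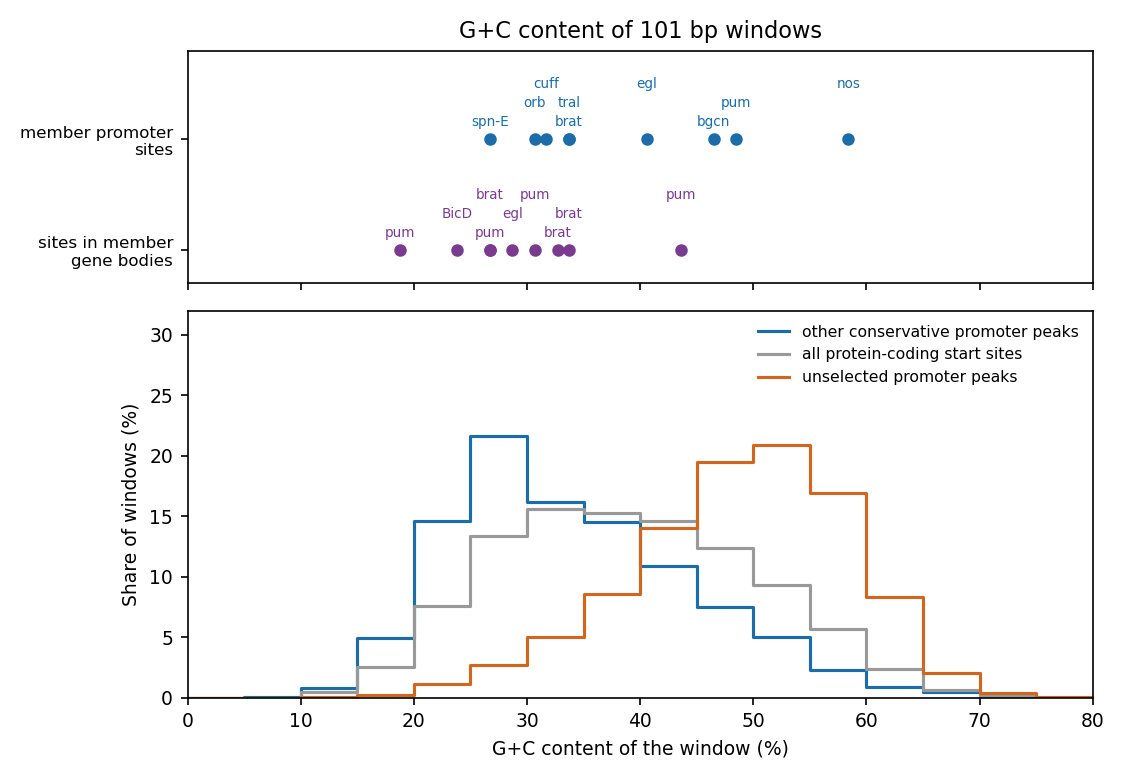
G+C content in percent of windows reaching 50 bases to either side of the summit. The upper panel shows each member promoter site (blue) and each site in a member gene body (purple), and the lower panel the share of windows in steps of 5 percentage points for other conservative promoter peaks (blue), all protein-coding start sites (grey) and promoter peaks outside the thresholded lists (orange). Most member sites lie under the blue curve's main part, and nos and the replicate 2 site of pum lie to the right.

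Related genes outside the 40 were counted in the same way, from 4 lists with 111 genes in all. A conservative promoter peak was found at 25 of them, or 22.5%, against 17.3% of all protein-coding genes. Of the other piRNA pathway genes 5 of 29 (17.2%) had one, led by papi, which encodes a Tudor-domain protein of the mitochondrial surface, with a signal of 560 (rank 288). The gene of heterochromatin protein HP1a followed with 152, then Nxf3, which encodes the export factor of piRNA cluster transcripts, with 117, and wde with 107. At the HP1a gene and Nxf3 the start site of another gene was nearer to the summit.

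Of the other regulators of maternal mRNA 10 of 33 (30.3%, interval 17.4% to 47.3%) had a conservative promoter peak. The highest were Pop2, a deadenylase gene, with 262, glo with 249, the decapping enzyme gene DCP2 with 220 and tsu, of the exon junction complex, with 187, and at glo the start site of another gene, COX5A, was nearer to the summit. Of other oogenesis and germline stem cell genes 6 of 28 (21.4%) had one. The signal was 1367 (rank 52) at stwl, 597 at mei-41, 399 at Sxl and 161 at lok, but at stwl, mei-41 and lok the start site of another gene was nearer to the summit. Of the maternal axis genes 4 of 21 (19.0%) had one, with 349 at cact, 336 at pll, 241 at bcd and 69.8 at fs(1)N, where the start site of DAAM was nearer. The share was highest for the maternal mRNA regulators, and no test between lists was run.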

How the data were processed

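Chromatin immunoprecipitation was measured in 2 biological replicates of 1 group, with chromatin sheared to a size range of 200 to 800, per the labels. The authors deposited 8 peak lists on dm6, of which 4 are thresholded. For the aligner and peak caller, names and versions were not given in the sources used here. Signal is the value of the authors' peak caller for a peak, as deposited. The score, a whole number of at most 1000, was made by the authors from the IDR, and thresholded peaks as deposited have a score of at least 830. The ranked lists also hold the deposited −log10 of the global IDR. The conservative list is read as common to both replicates because all 3718 of its peaks are in the ranked list whose source peaks mostly come from them. Of the 122959 peaks of that ranked list, 102395 had a source peak found in replicate 1 and 105088 had one found in replicate 2. A conservative peak need not pass the threshold in either replicate alone. No file holds read counts, so depth is unknown, and Wilson 95% intervals cover the sampling of genes only.

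From these lists, summits were matched to 24111 start sites and to gene bodies of Ensembl release 115. The 37 conservative peaks on other scaffolds were not used. Of the 40 members 39 matched by symbol. The symbol nos is annotated as nanos and was matched by hand after the lists had been seen. Sequence came from the RefSeq genome. The leading word is the word of 8 bases that stands out most between conservative peaks away from members and 113911 ranked peaks that overlap no thresholded peak, and the rule for scoring it was chosen after the lists had been seen. The members, lists and patterns were chosen with earlier results of these data known. Members with a thresholded promoter or gene-body peak are named with their values, other members by their ranked signal, and up to 4 genes of each further list by signal. The alternatives were other windows, lists, overlap rules, start sites and single replicates. Steps were tested on simulated data. Python 3.11.15, pandas 2.3.3, numpy 2.4.6, scipy 1.17.1 and matplotlib 3.10.9 were used.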

Additional observations from a re-analysis of the deposited data

How the results depend on the processing

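The count of 8 members with a conservative promoter peak was 6 within 250 bp (13.9% of protein-coding genes), 11 within 1000 bp (19.8%), where armi, pum and swa were added, 9 with any overlap (18.4%), and 8 with RefSeq start sites (17.3%) or with the 1859 peaks of highest signal ( 11.4% of protein-coding genes). It was 4 (12% of protein-coding genes) where the member's own start site had to be the nearest, an alternative chosen after seeing the data. With 1 replicate left out it ranged from 7 to 8: without replicate 1, bgcn and spn-E lost their peak and pum gained one. Within 250 bp, cuff stayed in the conservative count only through its weak second peak. Members with a promoter peak in both replicates were 3 in place of 6 within 250 bp (10%). Members with a summit in the gene body were 8 in place of 5 with any overlap (18.1%) and 3 without summits within 500 bp of a start site (5.96%), and ranged from 3 to 5 with 1 replicate left out; the value of 3 is that without replicate 1, against 7.70% of protein-coding genes. A leading word of 7 bases was in 0 member promoter windows in place of 1. The causes were not tested, beyond what each alternative leaves out. Of the 23 alternatives of counts, 17 stayed within 1.5 times of the value reported. No paired analysis was possible because there is only 1 group. Few members, unknown depth and the lack of an untagged immunoprecipitation limit what these counts can show.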
